A study of Homo sapiens with 8 samples.

Results

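The comparison described here is that of SMARCB1-null HAP1 cells with wildtype HAP1 cells, read over the genes with at least 1000 reads in total over the 8 libraries of the study. This minimum kept 13459 of 19541 genes (68.9%), which held 99.8% of all reads, and these genes are called members below. The genes just inside the minimum were PCDHB9, SPDYE3 and FUT1, with 1000.3, 1001 and 1001 total reads per the authors' deposited table. Those just outside were LOC101929340, KY and TOB1-AS1, with 999, 999 and 999. HAP1 is an established near-haploid human line that grows attached and descends from the chronic myeloid leukaemia line KBM-7. Polyadenylated RNA was sequenced from 4 groups of 2 samples. The wildtype samples were passages 9 and 12 of 1 line. The SMARCB1-null samples, both at passage 12, were made with a different CRISPR guide each, and whether each is 1 clone is not stated. SMARCA4-null cells, also at passage 12 with 1 guide a sample, and cells null for both genes, at passages 15 and 18 of 1 line, were compared with the same wildtype samples and serve only as context. The spread within wildtype is thus one of passage and that within the SMARCB1 null one of guide, and p-values cover no more than that spread. The depth that follows from the deposited values was 81.8 and 68.3 M reads for the wildtype libraries and 70.2 and 67.9 M for the SMARCB1-null libraries, and which sample each library is could not be told.

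SMARCB1 (also called SNF5, INI1 or BAF47) is a core subunit of the canonical and polybromo forms of the SWI/SNF complex, which uses ATP to move nucleosomes and keep enhancers and promoters accessible, and it is absent from the non-canonical form that holds BRD9. The complex works against Polycomb repression at developmental genes. Loss of SMARCB1 is the defining lesion of malignant rhabdoid tumours.

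SMARCB1 itself fell 9.2-fold, from an implied level of 103 in wildtype to 11.3 in the null in RPM (FDR 1.79e-14 per the authors' deposited table). RPM (reads per M) are the reads of a gene scaled to a common library depth. An implied level is the mean of a group that follows from the total reads, the ratios and the depths of the libraries, and levels are not corrected for gene length. In bulk RNA, fewer cells with a transcript and less transcript per cell cannot be told apart. SMARCB1 reads thus remained in the null, and protein was not measured. Of 31 subunit genes that were members, 0 rose and 2 fell at an FDR under 0.05, SMARCB1 and SMARCC1. Over all members 8.86% were called higher and 6.84% lower. SMARCC1, a scaffold that pairs with SMARCB1 in the core, went from 446 in wildtype to 376 in the null, a log2 ratio of -0.25 (FDR 0.0344 per the authors' deposited table). Log2 ratios of the other canonical core and ATPase genes were -0.08 for SMARCA4, -0.45 for SMARCA2, 0.08 for SMARCC2, -0.14 for SMARCD1 and -0.20 for SMARCE1 per the authors' deposited table, none of them called. The subunits that define the canonical form had log2 ratios of -0.11 for ARID1A, -0.14 for ARID1B and 0.07 for DPF2 per the authors' deposited table, and those of the polybromo form -0.28 for PBRM1, -0.12 for ARID2 and 0.01 for BRD7, again without a call, though PBRM1 passed edgeR on its recovered reads (adjusted p = 0.0194, quasi-likelihood test with Benjamini-Hochberg adjustment). For the non-canonical form, which lacks SMARCB1, the log2 ratios were 0.04 for BRD9, -0.15 for GLTSCR1 and -1.07 for its paralogue GLTSCR1L, whose FDR was 0.114 per the authors' deposited table. GLTSCR1L was, however, in the authors' shorter list described below, in which each FDR was at most 0.000967.

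Markers of other cell types were checked first. Of 10 haematopoietic markers in the table, 0 were members, and their summed implied level was 0.615 RPM in wildtype and 2.43 in the null. None of 5 endothelial markers was a member either. Markers of blood and endothelial cells were thus near 0 in both groups. Of 5 fibroblast and mesenchymal members, 3 had a ratio of at least 2 without a call and 1, FN1, was called lower, with a median log2 ratio of 1.34 per the authors' deposited table. Vimentin (VIM), the most abundant of them, stood at 440.0 and 436, and the collagen COL3A1 at 0.0153 and 10.5. All 3 epithelial members had a ratio of 0.5 or less, with a median log2 ratio of -1.55 and 1 call, KRT18, per the authors' deposited table, and the summed level of that list was 35.3 in wildtype and 12.6 in the null. Of 10 neuronal members 0 were called, and their median log2 ratio was 0.37, with 3 at a ratio of 0.5 or less and 1 at 2 or more, per the authors' deposited table. The summed neuronal level was 157 in wildtype and 47.5 in the null, most of the difference being that of SYT1, at 74 and 4.99, and TUBB3, at 66.2 and 22.1. The part of these cell types in the results was not tested. Skeletal muscle genes stood apart. All 10 members of that list had a ratio of at least 2, their median log2 ratio was 6.41, and their summed level over the 14 markers in the table went from 9.8 to 290.1, while 0 were called per the authors' deposited table. Where reads per library could be recovered, these transcripts lay in 1 null library. TNNC2, fast skeletal troponin C, was at 0.0978 and 0.439 RPM in the wildtype libraries and at 17.6 and 0.0147 in the null libraries, the deeper library of each group first here and below. MYLPF, fast skeletal myosin light chain, was at 0.0978 and 0.439 RPM in the wildtype libraries and at 16.9 and 0.0442 in the null libraries, and the muscle transcription factor MYOG at 1.17 and 0.0295 in the null libraries with 0 in both wildtype libraries (HBB and MYOG were picked after their values were seen). TNNC2 had 1237 of its 1342 reads and MYLPF 1188 of its 1284 in the deeper null library. Genes that pass the minimum of reads only through the library in which they are high are bound to have high ratios. The 10 of 10 and the median of 6.41 are thus in part fixed by the minimum. The adult globin gene HBB was at 1.91 and 0 in the null libraries. The deeper SMARCB1-null library thus stood apart from the shallower null library and both wildtype libraries in muscle transcripts, and its guide is not known here. The part of this library in single calls was tested only where reads per library were recovered.

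Genes differed between the SMARCB1 null and wildtype in both directions. Of the 13459 members, 2112 passed an FDR of 0.05 per the authors' deposited table, 15.7% of those tested, with 1192 higher (8.86%) and 920 lower (6.84%) in the null. Most changes were small. The median log2 ratio was 0.05 over all members with quartiles of -0.17 and 0.28, 0.66 among members called higher and -0.59 among those called lower per the authors' deposited table. Calls of at least 2-fold numbered 383 higher and 286 lower (4.97% of members together), and those of at least 10-fold numbered 61 and 63. The share called was 15.6% among members with 1000 to 10000 total reads, 14.2% with 10000 to 100000 and 25.2% above 100000 per the authors' deposited table. These reads are summed over all 8 libraries. The median fold of the calls in these ranges was 1.83, 1.58 and 1.33. Calls in the best-covered range leaned to lower, 185 against 149, whereas those below leaned to higher.

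**Figure D1:**
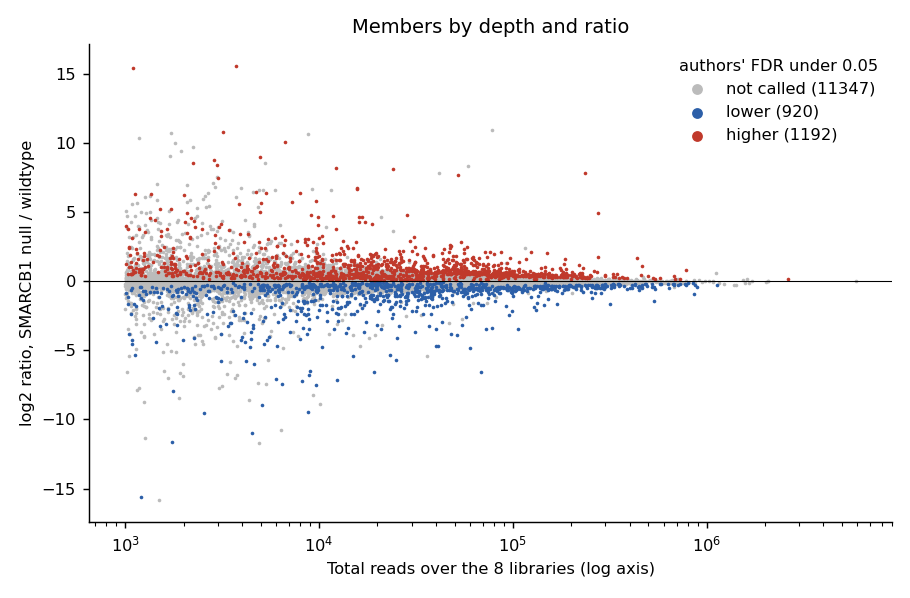
Each point is 1 of the 13459 members, placed by its total reads over the 8 libraries (log axis) and its log2 ratio of SMARCB1 null to wildtype per the authors' deposited table. Red points are the 1192 members called higher, blue points the 920 called lower at an FDR under 0.05 and grey points the members not called, which include large ratios at low totals.

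Among the most-read members that rose at least 2-fold were genes of metabolism and of the secretory pathway. SMS, spermine synthase, had an implied level of 372 in wildtype and 797 in the null, a 2.14-fold rise (FDR 5.04e-06 per the authors' deposited table). PRDX6, a peroxidase that also has phospholipase activity, went from 266 in wildtype to 854 in the null, 3.21-fold higher (FDR 2.09e-07 per the authors' deposited table). GOLM1, a Golgi membrane glycoprotein gene, went from 129 in wildtype to 449 in the null (FDR 1.89e-07 per the authors' deposited table). These 3 genes were already well expressed in wildtype, unlike the next pair. The cationic amino acid transporter SLC7A3 went from 17.9 in wildtype to 543 in the null, 30.3-fold higher (FDR 7.94e-60 per the authors' deposited table). The imprinted growth factor IGF2 went from 1.96 in wildtype to 458 in the null, 234-fold higher (FDR 3.12e-21 per the authors' deposited table). The remaining 7 of the 12 rose 2.07-fold to 4.33-fold per the authors' deposited table. They were the vesicle tether USO1, the mitochondrial fusion GTPase OPA1, the ferritin autophagy receptor NCOA4, the actin and microtubule crosslinker MACF1, the UDP-glucose enzyme UGP2, the ubiquitin ligase RNF157 and the phosphopentomutase PGM2.

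The most-read members that fell at least 2-fold included cytoskeletal and adhesion genes. FLNA, filamin A, which crosslinks actin filaments, went from 1389 in wildtype to 529 in the null, 2.62-fold lower (FDR 2.23e-79 per the authors' deposited table). FSCN1, fascin, which bundles actin in protrusions, went from 307 in wildtype to 102 in the null (FDR 4.46e-27 per the authors' deposited table). UTRN, utrophin, which ties actin to the membrane, went from 299.9 in wildtype to 72.3 in the null (FDR 1.94e-34 per the authors' deposited table). All of them are actin-binding proteins, and the microtubule-associated MAP1B fell 3.12-fold (FDR 0.04 per the authors' deposited table). GSTP1, a glutathione transferase, went from 709.5 in wildtype to 304 in the null (FDR 1.61e-44 per the authors' deposited table). The deacetylase HDAC9 went from 347 in wildtype to 94.2 in the null (FDR 2.92e-36 per the authors' deposited table), and the membrane protein gene ITM2A from 531 in wildtype to 47.9 in the null, 11.1-fold lower (FDR 2.52e-74 per the authors' deposited table). The ubiquitin-conjugating enzyme UBE2E3, the proteoglycan GPC3, the SLIT receptor ROBO1, the collapsin response mediator DPYSL5 and the matrix protein FBLN1 fell by 2.13-fold to 3.26-fold per the authors' deposited table.

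The other nulls, compared with the same wildtype samples, are given side by side for these genes without a test. The order is SMARCB1 null, SMARCA4 null, double null. IGF2 had log2 ratios of 7.87, -0.87 and 8.94, of which that in the SMARCA4 null was not called (FDR 0.765 per the authors' deposited table). GPC3 had -1.67, 1.67 and -3.57, and UTRN had -2.05, 0.08 and -1.17 per the authors' deposited table. MAP1B stood at -1.64, 0.11 and 0.24, the last 2 without a call (FDR 0.992 and 0.945 per the authors' deposited table). SMS and GOLM1, by contrast, were higher in all 3 nulls, at 1.10, 1.05 and 1.34 for SMS and 1.80, 1.83 and 2.37 for GOLM1 per the authors' deposited table. Over all members, the SMARCA4 null had 8.32% called higher and 5.42% lower, and the double null 12.6% and 7.66%.

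**Figure D2:**
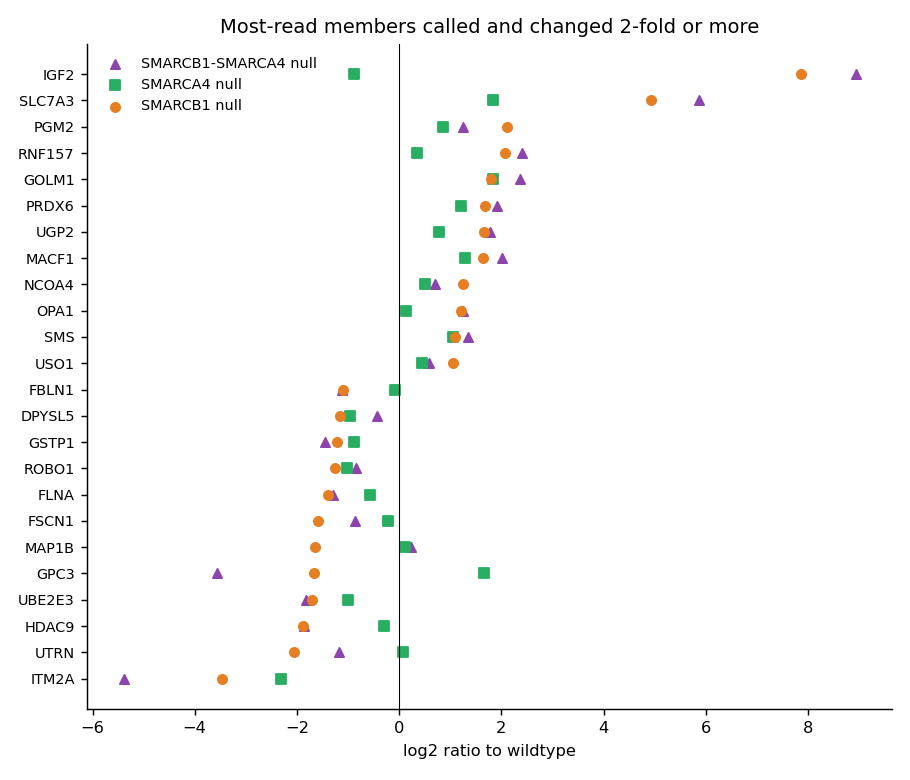
Log2 ratios to wildtype per the authors' deposited table are plotted for the 12 most-read members called higher and the 12 called lower in the SMARCB1 null with a change of at least 2-fold, 1 gene a row. Circles are the SMARCB1 null, squares the SMARCA4 null and triangles the double null, all against the same wildtype samples. For UTRN the circle at -2.05 lies apart from the square at 0.08.

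Reads per library were recovered for 2048 members (15.2%), of which 363 were called per the authors' deposited table, 17.7% of those recovered. In all 363 the null libraries lay apart from the wildtype libraries, which was so for 66.7% of recovered members whether called or not. The genes described next were picked after their values were seen from those plotted by library, the recovered calls with the highest and lowest ratios, and not in order of size. Among those not described, FAM189A1 and ABCD2 had ratios of 23.8 and 21.6 and CA8 and CASC10 of 0.00404 and 0.16 per the authors' deposited table. TNFAIP6, a hyaluronan-binding protein gene, was at 0.0856 and 0.0146 RPM in the wildtype libraries and at 26.6 and 25.1 in the null libraries. AMBN, which encodes the enamel matrix protein ameloblastin, was at 0.0856 and 0.117 RPM in the wildtype libraries and at 6.8 and 9.12 in the null libraries. Both null libraries held these transcripts at like levels, and wildtype had 7 and 1 reads of TNFAIP6. LSAMP, a neuronal adhesion molecule, was at 0.0611 and 0.161 RPM in the wildtype libraries and at 15.8 and 49.8 in the null libraries, so that its null libraries differed by 3.16-fold. H2AFY2, which encodes the histone variant macroH2A2, was at 6.81 and 6.68 RPM in the wildtype libraries and at 63.5 and 64.2 in the null libraries. It was 9.46-fold higher, with an FDR of 1.94e-134 per the authors' deposited table. QPCT, glutaminyl cyclase, was at 0.379 and 0.337 RPM in the wildtype libraries and at 5.87 and 7.13 in the null libraries, and ADM, the vasodilator peptide adrenomedullin, at 4.52 and 5.61 RPM in the wildtype libraries and at 26.1 and 29.2 in the null libraries. The groups lay apart in each of these genes, as in all 363 recovered calls, so this adds no support. Reads given to edgeR were recovered from the same deposited ratios and are not independent data. With edgeR's quasi-likelihood test and Benjamini-Hochberg adjustment the adjusted p was 0.000492 for TNFAIP6, 2.15e-10 for AMBN, 2.66e-15 for H2AFY2, 1.52e-10 for QPCT and 2.72e-11 for ADM. LSAMP did not pass that test (adjusted p = 0.0616 with edgeR).

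Among the recovered falls, NPY1R, a neuropeptide Y receptor, was at 6.58 and 6.77 RPM in the wildtype libraries and at 0.812 and 0.781 in the null libraries. TMC1, a mechanotransduction channel gene of hair cells, was at 7.65 and 6.49 RPM in the wildtype libraries and at 1.27 and 1.43 in the null libraries. SERPINF1, which encodes the anti-angiogenic pigment epithelium-derived factor, was at 8.83 and 11.4 RPM in the wildtype libraries and at 2.17 and 2.24 in the null libraries. NPY1R, TMC1 and SERPINF1 fell 4.58-fold to 8.38-fold per the authors' deposited table, with null libraries close to each other. MT1F, a metallothionein, was at 8.78 and 10.5 RPM in the wildtype libraries and at 1.88 and 2.15 in the null libraries, although metallothionein genes are near-identical and reads may have been split between them. MGAT4C, related to the enzymes that branch N-glycans, was at 7.97 and 6.52 RPM in the wildtype libraries and at 0 and 0 in the null libraries. With 3 reads over the null pair as the floor, MGAT4C was at least 334-fold lower, and it was called per the authors' deposited table (FDR 0.00577) but missed the threshold of edgeR (adjusted p = 0.0707). For NPY1R, TMC1, SERPINF1 and MT1F the edgeR adjusted p lay between 3.78e-08 and 2.02e-07 in the quasi-likelihood test with Benjamini-Hochberg adjustment. The groups lay apart in these genes, as in all 363 recovered calls and in 66.7% of recovered members.

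**Figure D3:**
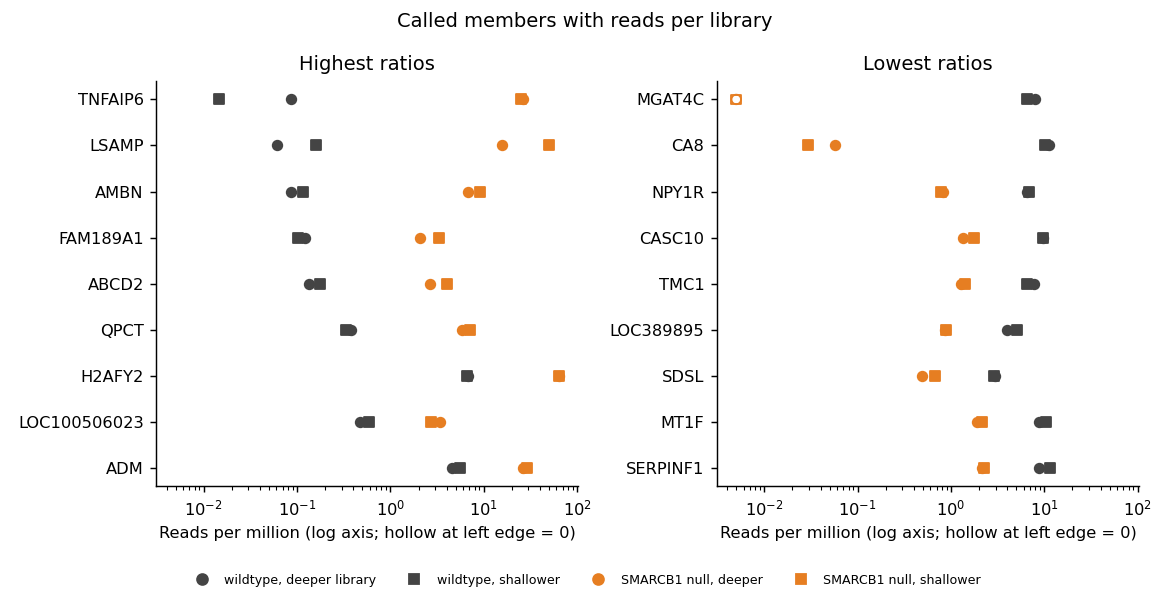
RPM (log axis) in each wildtype and SMARCB1-null library are plotted for the 9 highest (left) and 9 lowest (right) ratios among recovered members called per the authors' deposited table and changed at least 2-fold, 1 gene a row. Circles are the deeper and squares the shallower library of a group, and hollow symbols mark 0 reads. The groups lie apart in each row, as they do in all 363 recovered calls.

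The promoters of 4 of these genes are printed to show start sites at both ends of the range of base composition, TNFAIP6 and MGAT4C as the largest rise and fall among recovered members called by the authors' FDR and SMS and FLNA as the most-read rise and fall of at least 2-fold. Each runs from 250 bases before to 50 after the start in RefSeq on GRCh38.p14, in the direction of the gene, and capitals mark matches on either strand to any of the 7 motifs counted below. TNFAIP6 lies at chr2:151357342-151357641 (plus strand), MGAT4C at chr12:86256342-86256641 (minus strand), SMS at chrX:21940459-21940758 (plus strand) and FLNA at chrX:154374585-154374884 (minus strand).
TNFAIP6: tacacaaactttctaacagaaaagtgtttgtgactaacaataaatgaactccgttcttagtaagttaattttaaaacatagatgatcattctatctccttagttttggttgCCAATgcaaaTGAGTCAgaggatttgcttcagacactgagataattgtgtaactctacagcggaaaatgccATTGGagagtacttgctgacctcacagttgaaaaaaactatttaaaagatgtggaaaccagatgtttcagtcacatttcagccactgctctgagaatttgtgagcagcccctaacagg
MGAT4C: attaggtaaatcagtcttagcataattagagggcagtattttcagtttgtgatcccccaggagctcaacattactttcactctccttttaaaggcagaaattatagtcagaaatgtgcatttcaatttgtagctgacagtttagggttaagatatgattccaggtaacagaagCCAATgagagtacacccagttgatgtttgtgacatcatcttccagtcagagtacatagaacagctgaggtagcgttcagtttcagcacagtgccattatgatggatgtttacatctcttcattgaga
SMS: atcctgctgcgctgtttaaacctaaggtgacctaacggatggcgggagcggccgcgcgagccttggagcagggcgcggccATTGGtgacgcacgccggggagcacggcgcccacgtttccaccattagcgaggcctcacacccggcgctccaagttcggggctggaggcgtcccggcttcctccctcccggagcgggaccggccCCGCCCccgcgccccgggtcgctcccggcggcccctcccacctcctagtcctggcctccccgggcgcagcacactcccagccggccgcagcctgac
FLNA: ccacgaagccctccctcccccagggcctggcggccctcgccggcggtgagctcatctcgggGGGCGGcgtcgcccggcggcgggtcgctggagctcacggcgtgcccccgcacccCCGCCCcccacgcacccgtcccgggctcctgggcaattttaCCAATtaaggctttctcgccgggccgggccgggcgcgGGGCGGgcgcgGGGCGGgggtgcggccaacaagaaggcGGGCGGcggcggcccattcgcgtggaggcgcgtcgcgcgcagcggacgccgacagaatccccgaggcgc
GC content was 37% for TNFAIP6 and 39% for MGAT4C against 73.3% for SMS and 78.3% for FLNA. The ratio of observed to expected CpG was 0.195 and 0.0882 against 0.882 and 1.02. The FLNA promoter held 5 GC boxes, and TNFAIP6 held 1 AP-1 match and 2 CCAAT matches. The promoters of TNFAIP6 and MGAT4C are thus poor in CpG, and those of the abundant pair are rich in it.

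Across members off chromosome 8, promoters of called and uncalled genes had like base composition. A RefSeq promoter was found for 957 of 1143 members called higher, 725 of 869 called lower and 8932 of 10742 not called. Median GC content was 65.7%, 65.3% and 65.7%, against 58.3% over all 27305 promoters. The ETS motif CCGGAAG was in 14.1% of promoters called higher, 12.6% called lower, 20% not called and 10.7% of all. The AP-1 motif TGANTCA was in 5.43%, 5.38%, 3.86% and 7.76%, and the TATA box TATAAA in 5.43%, 7.31%, 5.08% and 12%. The GC box GGGCGG was in 70.4%, 68.8%, 71.1% and 44.6%, and CCAAT in 35.6%, 41.1%, 36.5% and 35.7%. The E-box CACGTG was in 10.9%, 8%, 10.3% and 7.43%, and the TEAD motif GGAATG in 12.2%, 11.4%, 10% and 14%. These shares are a description, since no test of them was run, and a match is not a bound site.

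Genes of the actin cytoskeleton and targets of the factor SRF held the highest share of falls among the lists with at least 10 members. Of its 28 members, 3 rose and 11 fell, against 8.86% and 6.84% over all members, with a median log2 ratio of -0.23 against 0.05. The falls were led by the smooth muscle actin ACTG2 (-4.02), the actin-stabilising CALD1 (-2.35, from 77 in wildtype to 15.2 in the null) and the adhesion adaptor TGFB1I1 (-2.26) on the log2 scale per the authors' deposited table. TPM2 and the smooth muscle actin ACTA2 went the other way, ACTA2 from 3.99 in wildtype to 56.3 in the null and TPM2 with a log2 ratio of 1.85 per the authors' deposited table. TPM2 and ACTA2 are also muscle genes, their reads per library were not recovered, and the part of the library with muscle transcripts in these rises was not tested. The list's median was 0.18 and -0.10 in the SMARCA4 and double nulls. Intermediate filament genes were in the same direction, with 0 of 14 higher and 4 lower. These were the neural progenitor filament NES, from 117 in wildtype to 29.9 in the null, the keratin KRT18 (-1.39 on the log2 scale) and the lamins LMNA and LMNB1 (-0.59 and -0.58) per the authors' deposited table.

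Matricellular and basement membrane genes were called lower more often than higher. Of 24 members of that list, 0 rose and 6 fell, beside 8.86% higher and 6.84% lower over all members. Called or not, 6 of the 24 had a ratio of at least 2 and 9 a ratio of 0.5 or less. Fibronectin (FN1) went from 65.3 in wildtype to 12.5 in the null and versican (VCAN), a hyaluronan-binding proteoglycan, from 40.6 in wildtype to 3.19 in the null (FDR 2.4e-08 and 1.18e-05 per the authors' deposited table). The basement membrane genes agrin (AGRN), perlecan (HSPG2) and nidogen NID2 had log2 ratios of -0.99, -1.17 and -1.91 per the authors' deposited table. The list's median was -0.41, and 0.32 and -0.01 in the SMARCA4 and double nulls, with 1 and 5 members called lower there. Collagens were mixed, with 2 higher and 3 lower of 20. COL2A1, the cartilage collagen, went from 314 in wildtype to 91.8 in the null and COL5A2 from 3.25 in wildtype to 28.4 in the null (FDR 5.76e-30 and 0.000415 per the authors' deposited table). Of 13 integrins 2 rose, ITGA4 and ITGB1, by 0.50 and 0.20 on the log2 scale per the authors' deposited table. Of 7 laminins 1 rose and 1 fell. The collagen, integrin and laminin lists are short and are to be read against the shares over all members.

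Receptors and guidance cues changed in both directions, with falls the more frequent. Of 37 receptor tyrosine kinases 11 fell and 3 rose, and the median log2 ratio was -0.48. The shares over all members were 6.84% lower and 8.86% higher. EPHA4, an ephrin receptor, went from 73.4 in wildtype to 1.75 in the null, 42-fold lower, and the fibroblast growth factor receptor FGFR2 from 85.1 in wildtype to 5.01 in the null, 17-fold lower (FDR 4.78e-07 and 4.62e-11 per the authors' deposited table). The rises were the neuregulin receptor ERBB4, from 0.412 in wildtype to 22.7 in the null, the lymphatic growth factor receptor FLT4, from 44.7 in wildtype to 181 in the null, and the PDGF receptor PDGFRA, from 1.74 in wildtype to 12.7 in the null. Of 51 axon guidance genes 12 fell and 6 rose, the rises being not far from the share over all members. The semaphorin SEMA6A went from 145 in wildtype to 13 in the null (FDR 5.85e-20 per the authors' deposited table). The secreted cues SLIT2 and SLIT3 had log2 ratios of -3.13 and -6.80 and their receptor ROBO2 of -4.66 per the authors' deposited table, beside the fall of ROBO1 given above. UNC5C, a netrin receptor, rose from 1.2 in wildtype to 32.3 in the null. The median of the guidance list was -0.17 here and 0.10 and 0.43 in the SMARCA4 and double nulls.

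Cadherins moved in opposite directions. CDH10 rose from 15.4 in wildtype to 71.4 in the null and N-cadherin (CDH2) from 77.5 in wildtype to 199.8 in the null, whereas CDH6 fell from 248 in wildtype to 17.2 in the null, the 1 fall beside 2 rises among 8 members. Their FDR was 1.29e-104, 1.77e-14 and 2.78e-33 per the authors' deposited table. Over all members 8.86% were higher and 6.84% lower.

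Mitotic genes were called lower by small amounts. Of the 28 members, 0 rose and 10 fell, beside 8.86% higher and 6.84% lower over all members. The median log2 ratio of the list was -0.20. The kinetochore genes CENPF, CENPE, NUF2 and NDC80 had log2 ratios of -0.62, -0.63, -0.66 and -0.60 per the authors' deposited table. NDC80 was at 178 and 174 RPM in the wildtype libraries and at 109 and 123 in the null libraries, and the wildtype libraries were above both null libraries (adjusted p = 4.31e-05 with edgeR). TOP2A, which untangles DNA before division, went from 878 in wildtype to 646 in the null (FDR 3.12e-10 per the authors' deposited table). Among 13 cyclins and their kinases 1 rose and 2 fell, by larger amounts. CCND1 rose from 3.64 in wildtype to 25.9 in the null, while CCND2 fell from 25.7 in wildtype to 2.33 in the null and their partner kinase CDK6 from 149 in wildtype to 19.5 in the null, with FDRs of 0.000767, 0.000766 and 9.05e-21 per the authors' deposited table. Of 10 CDK inhibitors and RB family members, 1 fell, CDKN1B (p27), with a log2 ratio of -0.60 per the authors' deposited table. The cyclin and CDK inhibitor lists are short, and their counts are to be read against the shares over all members. DNA replication genes were near the 6.84% called lower over all members, with 2 of 30 lower (MCM7 and GINS1).

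Lysosomal genes rose more often than they fell. Of the 31 members, 8 rose and 1 fell, with a median log2 ratio of 0.17, beside 8.86% higher and 6.84% lower over all members. At an FDR threshold of 0.01 the list held 3 calls in place of 9. The cathepsins CTSL and CTSD had log2 ratios of 0.98 and 0.85, the sialidase NEU1 of 0.88 and the saposin precursor PSAP of 0.70 per the authors' deposited table, while the cathepsin CTSO had -0.92. Nuclear genes of oxidative phosphorylation gave 7 rises and 0 falls among 48 members, with log2 ratios of 0.47 or less. At an FDR threshold of 0.01, 2 of the 7 were left. Complex II subunits SDHB and SDHD and the complex III subunit UQCRC2 had log2 ratios of 0.47, 0.44 and 0.47 per the authors' deposited table. The list's median was 0.22, against 0.13 and 0.17 in the SMARCA4 and double nulls.

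Genes of the unfolded protein response and of ATF4, the factor of amino acid shortage, gave 7 rises and 3 falls among 29 members. The shares over all members were 8.86% higher and 6.84% lower. The rises included the cystine transporter SLC7A11, from 78.8 in wildtype to 176 in the null, the mTORC1 inhibitor DDIT4, from 17.2 in wildtype to 53.4 in the null, and asparagine synthetase ASNS, from 97 in wildtype to 164 in the null. SLC7A5 and SLC3A2, which form the large neutral amino acid transporter, had log2 ratios of 0.57 and 0.51 per the authors' deposited table. Genes of MHC class I presentation gave 4 rises and no fall among 15 members. At an FDR threshold of 0.01, 2 of the 4 were left. The 4 included TAPBP, HLA-B and ERAP1, with log2 ratios of 0.66, 0.55 and 0.53 per the authors' deposited table. HLA-B is near-identical to its paralogues in places, so reads may have been split between them. Among p53 targets the death receptor FAS and the stress gene SESN1 rose 5.92-fold and 5.31-fold (FDR 6.59e-34 and 5.43e-10 per the authors' deposited table), and the 23 members held 3 rises and 2 falls, the falls being BTG2 and PLK3.

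**Figure D4:**
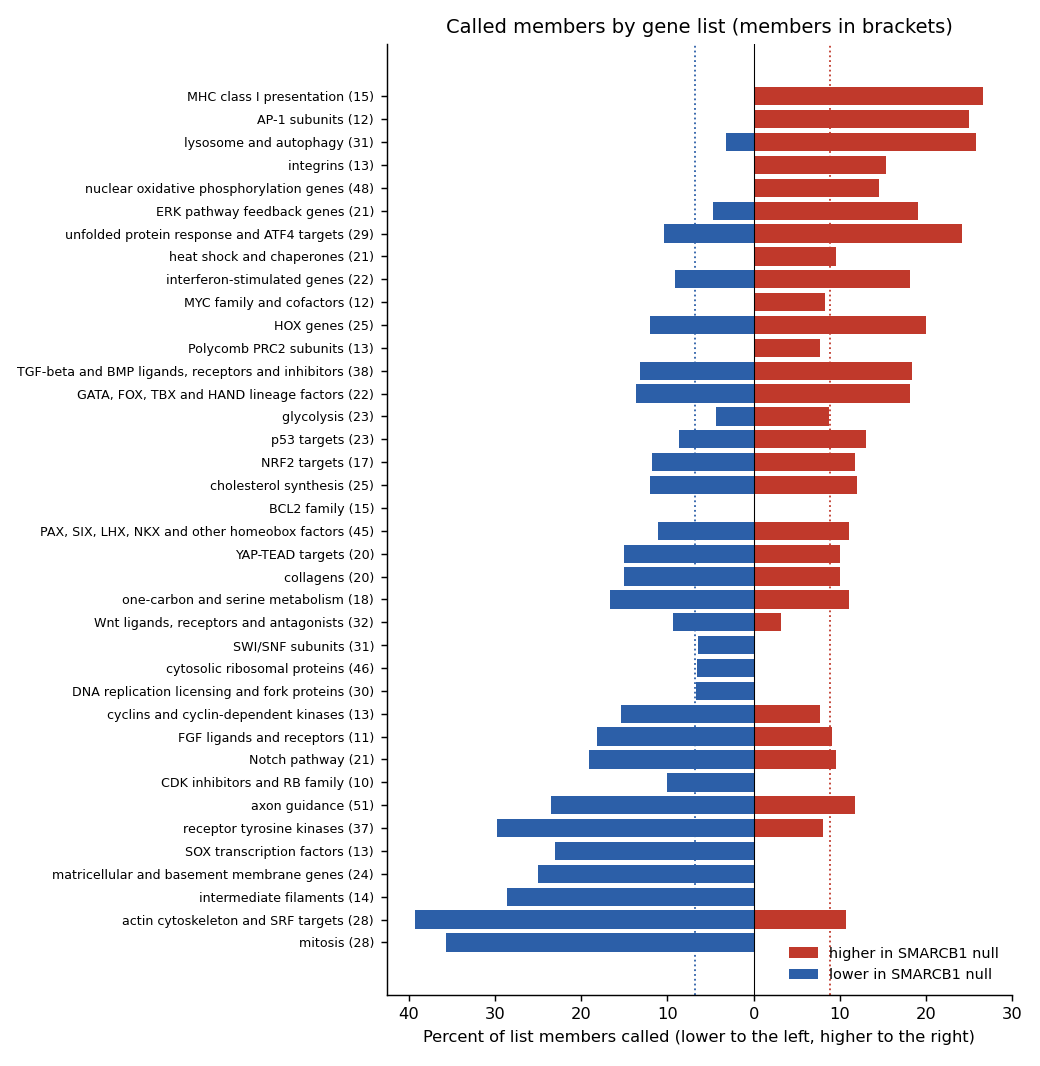
Bars give the percentage of each list's members (number in brackets) called higher (red, right) or lower (blue, left) in the SMARCB1 null at an FDR under 0.05 per the authors' deposited table, for lists with at least 10 members. Lists of cell type markers are not drawn. Dotted lines mark the shares over all members, 8.86% higher and 6.84% lower. Mitosis and actin lists lie at the bottom and MHC class I presentation at the top.

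Transcription factors of development changed in both directions, beside 8.86% higher and 6.84% lower over all members. OTX2, a forebrain and early embryonic homeobox factor, went from 283 in wildtype to 25.6 in the null, 11-fold lower (FDR 3.89e-39 per the authors' deposited table). SOX4 went from 195 in wildtype to 65.5 in the null, and SOX21 and SOX6 fell too, so that 3 of 13 SOX members were lower and 0 higher. The endoderm factors FOXA1 and FOXA2 differed in sign, FOXA1 going from 117 in wildtype to 59 in the null and FOXA2 from 0.0775 in wildtype to 2.92 in the null (FDR 1.57e-05 and 0.00055 per the authors' deposited table). The heart and limb factor TBX5 went from 68.8 in wildtype to 25.5 in the null, while TWIST1, a mesodermal factor, was at 15.1 and 13.7 RPM in the wildtype libraries and at 32.7 and 31.3 in the null libraries (adjusted p = 1.17e-07 with edgeR's quasi-likelihood test). Among 25 HOX members 5 rose and 3 fell. The rises of most size were HOXC5, HOXB13, HOXC8 and HOXC6, 2.82-fold to 3.5-fold, and the falls of most size HOXA13 and HOXA10, 2.27-fold and 1.95-fold, per the authors' deposited table. The HOX median was 0.28 here and -0.41 and 0.22 in the SMARCA4 and double nulls. JARID2, which brings Polycomb complex PRC2 to chromatin, was the 1 call among 13 PRC2 members and rose from 44.6 in wildtype to 115 in the null (FDR 1.64e-08 per the authors' deposited table).

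Signalling lists held changes in both directions, beside 8.86% higher and 6.84% lower over all members. Of 38 genes of the TGF-beta and BMP pathways 7 rose and 5 fell. LTBP1, which stores latent TGF-beta in matrix, went from 1.78 in wildtype to 34.9 in the null and the ligand TGFB3 from 5.87 in wildtype to 23.6 in the null, while the receptor TGFBR2 fell from 29.4 in wildtype to 11.4 in the null. The BMP targets ID1 and ID3 rose 2.06-fold and 2.37-fold per the authors' deposited table. Of 21 members of the Notch pathway 2 rose and 4 fell. The ligands DLL3 and JAG1 rose 2.36-fold and 1.75-fold per the authors' deposited table. NOTCH1, the modifier LFNG, the target NRARP and the coactivator MAML3 fell, with log2 ratios of -0.64, -0.75, -0.66 and -2.75 per the authors' deposited table. Among 20 genes of the YAP and TEAD list, WWTR1, which encodes the YAP paralogue TAZ, went from 163 in wildtype to 78.7 in the null and TEAD1, its DNA-binding partner, from 199.8 in wildtype to 269.8 in the null (FDR 2.61e-08 and 0.00241 per the authors' deposited table).

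AP-1 subunits gave 3 rises and no fall among 12 members, MAF, JUNB and BATF3, with log2 ratios of 1.78, 0.40 and 0.34 per the authors' deposited table, of which edgeR did not call BATF3 (adjusted p = 0.168). The list's median was 0.64, and 0.79 and 0.52 in the SMARCA4 and double nulls. The list of ERK feedback genes, which also holds CCND1 and the ephrin receptor EPHA4, gave 4 rises and 1 fall, EPHA4, among 21 members. The rises included the phosphatase DUSP5 and the inhibitor SPRY1 (2.58-fold and 2.17-fold per the authors' deposited table). SPRY2, picked after its values were seen, was at 8.03 and 7.66 RPM in the wildtype libraries and at 2.91 and 3.12 in the null libraries. It was not called (FDR 0.347 per the authors' deposited table). Of 32 Wnt pathway members 1 rose and 3 fell, with the receptor FZD10 going from 14.7 in wildtype to 3.3 in the null. Over all members 8.86% were higher and 6.84% lower, which these short lists are to be read against. Interferon-stimulated genes gave 4 rises, led by the RNA sensor IFIH1 (MDA5), which went from 0.706 in wildtype to 7.7 in the null, and 2 falls among 22 members. Among 17 NRF2 targets the haem oxygenase HMOX1 and SLC7A11 rose and GCLC and TKT fell.

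Other lists held few or small calls, beside 8.86% higher and 6.84% lower over all members. None of 15 BCL2 family members was called per the authors' deposited table, and 3 of 46 ribosomal protein genes were, RPLP1, RPS6 and RPL8, at -0.24, -0.17 and -0.15 on the log2 scale. Ribosomal protein genes have many processed copies, to which reads may have been assigned. Cholesterol synthesis was split, with 3 rises (SREBF1, DHCR7 and CYP51A1) and 3 falls (HMGCS1, SQLE and FDFT1) among 25 members. SQLE, squalene epoxidase, was at 147 and 152 RPM in the wildtype libraries and at 117 and 108 in the null libraries, with both null libraries below both wildtype libraries. Of 23 glycolysis members 1 fell and 2 rose. The triose isomerase TPI1 fell and PFKM and the lactate transporter SLC16A1 rose, with log2 ratios of -0.48, 0.43 and 0.48 per the authors' deposited table. The list's median was -0.09 here and 0.29 and -0.14 in the SMARCA4 and double nulls.

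Some members were close to absent in 1 group. A gene without wildtype reads is a member only if the nulls bring it over the minimum of reads. DSG1, for 1, had an implied 914 of its 1093.5 reads in the SMARCB1 null. Large rises among such genes are thus in part set by the minimum. The neuropeptide VIP and the desmosomal cadherin DSG1 had no wildtype reads by their implied levels and 7.57 and 6.62 RPM in the null, so that against a floor of 3 reads summed over wildtype VIP was at least 379-fold higher and DSG1 at least 331-fold higher. The membrane repair gene MYOF went from 0.228 in wildtype to 48 in the null, the potassium channel KCNK9 from 0.184 in wildtype to 51.2 in the null and the actin-associated SYNPO2 from 0.373 in wildtype to 39.8 in the null (FDR 0.0248, 0.0359 and 0.00637 per the authors' deposited table). In the other direction, the surface glycoprotein CD24 went from 189.8 in wildtype to 2 in the null, 95.1-fold lower, and the liprin PPFIA2 from 59.4 in wildtype to 0.628 in the null, 94.6-fold lower (FDR 0.000284 and 0.000581 per the authors' deposited table). The potassium channel KCNK2, the zinc finger gene ST18 and the cytoskeletal gene ERMN went from 51.9, 40.4 and 66 in wildtype to under 1 RPM in the null, each called per the authors' deposited table. MME, a membrane peptidase, had an implied 4367 reads over the wildtype libraries and 2 over the null libraries, a ratio of 2009.5 with an exact 95% counting interval of 556 to 16599, which covers counting error only.

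The lowest FDRs belonged in part to modest changes in well-covered genes. SMARCAD1, a chromatin remodeller outside SWI/SNF, had a ratio of 1.93 and the restriction factor TRIM5 of 1.99 (FDR 8.59e-205 and 6.19e-119 per the authors' deposited table). The clathrin adaptor PICALM, the sorting nexin SNX25 and the secreted glycoprotein CREG1 had ratios of 1.66, 2.42 and 2.16 per the authors' deposited table. On the falling side the cohesin subunit STAG2 had 0.777, the lamin B receptor LBR 0.698 and the retrotransposon-derived imprinted gene PEG10 0.518 per the authors' deposited table, from wildtype levels of 585, 363 and 1823.

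Large ratios were often not called. Of 1388 members with a change of at least 2-fold, 669 were called and 719 were not, 418 of these higher in the null, per the authors' deposited table. Where reads per library were recovered, 47 of 75 such uncalled members had null libraries at least 2-fold apart or without reads. Of the called ones 2 of 85 did, LSAMP at 3.16-fold and MGAT4C with 0 reads in both. The 47 include DPP10-AS1, with 0 reads in both null libraries, and GRIK3, with 1 and 0, both picked after their values were seen. The count is thus not one of disagreement between null libraries alone. Of the 75, 57 had null libraries apart from the wildtype libraries, as had 66.7% of all recovered members. GRIK3 had 2101 of its 2114 reads in the deeper double-null library and is a member through that library. EGR1, also picked after its values were seen, was not called (FDR 0.143 per the authors' deposited table). EGR1 was at 2.69 and 3.21 RPM in the wildtype libraries and at 8.42 and 10.7 in the null libraries. Among members with at least 1 RPM in a library of the group, 1 of 1954 were 2-fold apart in wildtype and 26 of 1976 in the SMARCB1 null, 12 of them higher in the deeper library. The same count was 11 of 1975 in the SMARCA4 null and 114 of 2040 in the double null. The fibrillin gene FBN2, chosen here after its values were seen, was at 240.2 and 180.3 RPM in the wildtype libraries and at 36.3 and 152 in the null libraries. Its ratio of 0.448 was not called (FDR 0.227 per the authors' deposited table). Both null libraries were below both wildtype libraries, and they were 4.2-fold apart. The purinergic receptor P2RX3, picked likewise, was at 0.0245 and 0.0439 RPM in the wildtype libraries and at 3.62 and 9.4 in the null libraries, with an FDR of 0.0571 per the authors' deposited table. Both null libraries were above both wildtype libraries, and they too were 2.6-fold apart.

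**Figure D5:**
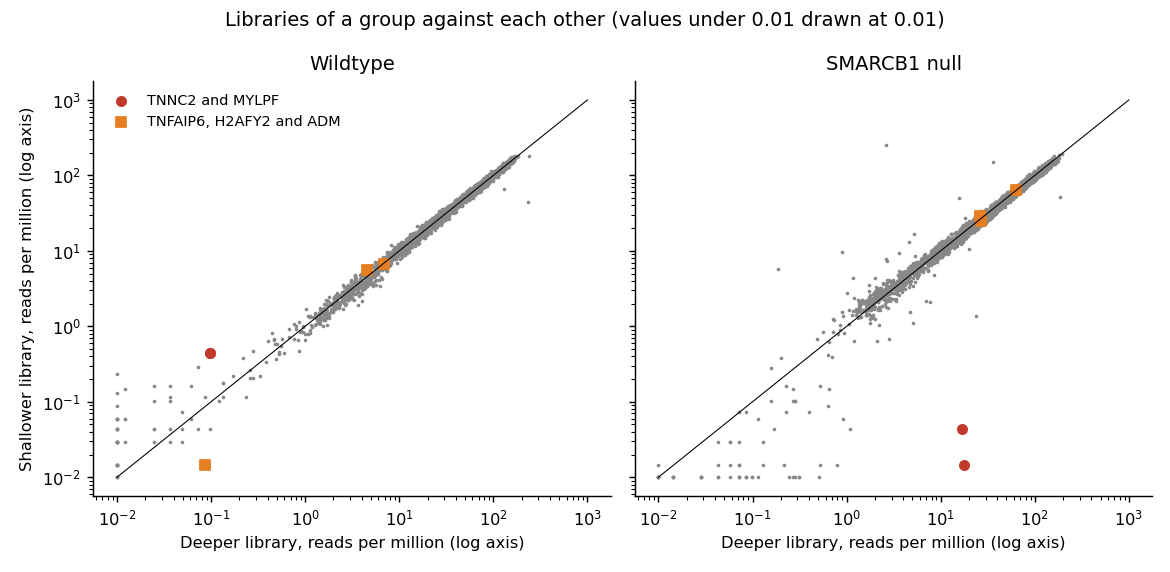
RPM (log axes) in the deeper library (x) and the shallower library (y) of wildtype (left) and of the SMARCB1 null (right) are plotted for the 2048 members with recovered reads, with the line of equal levels. TNNC2 and MYLPF (red) lie at 17.6 and 16.9 in the deeper null library and under 0.05 in the shallower, whereas TNFAIP6, H2AFY2 and ADM (orange squares) lie on the line in the null.

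The calls were spread over the genome. By RefSeq symbol, a chromosome was found for 13208 members, and 23 chromosomes held at least 50. Their median log2 ratios ran from -0.02 on chromosome X to 0.11 on chromosome 17. Chromosome 4 had the highest share called higher, 14.4% of its members, and the X chromosome the highest share called lower, 11.8%, against 8.86% and 6.84% over all members.

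The authors also deposited a shorter list of 409 genes for the SMARCB1 null. In it 269 genes were higher and 140 lower, and each had at least 1033 total reads, a fold of at least 2.01 and an FDR of at most 0.000967 per the authors' deposited table. The same limits of an FDR under 0.001 and 2-fold left 429 members in the full table. The lists shared 252 genes, 58.7% of the full table's and 61.6% of the shorter one's. Ratios were within 1% of each other for 401 of the 409 and no gene changed direction, but 84 of them were not called at an FDR of 0.05 in the full table, so the FDRs of the authors' deposited tables differed where the ratios did not.

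With edgeR's quasi-likelihood test on the recovered reads, 567 of 2021 members past its filter had an adjusted p under 0.05, 28.1%, with 377 higher and 190 lower. Of the 363 recovered members called per the authors' deposited table, 269 were called by edgeR too. With TMM scaling the split was 281 higher and 280 lower, as that scaling moved the median log2 change by -0.08, so the lean of the recovered calls to higher depends on the scaling. Without the deeper null library, the one with muscle transcripts, edgeR called 240 members, and without the shallower 314, against 168 and 187 without the deeper and the shallower wildtype library.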

How the data were processed

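RNA from HAP1 cells was made into libraries with a stranded mRNA kit, per the labels' protocols. The submitters' processing notes name STAR, Partek 4.0 and hg19. The aligner's settings, the annotation, the strand setting of the counting, the scaling and the test are not given in the labels, headers or notes used here, so antisense and overlapping genes are uncertain. The deposited tables give, per gene, the estimated count summed over all 8 libraries, the ratio of each null group to wildtype, the same as a signed fold score, and the p-value with its step-up FDR, per the file headers. The deposited FDR equalled a Benjamini-Hochberg adjustment of the deposited p-value over all 19541 genes.

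Calls used an FDR under 0.05 among genes with at least 1000 total reads. Group levels in RPM were derived from each gene's total and its 3 ratios. Where a set of whole reads in all 8 libraries fitted these values within a tight limit, the closest fit found gave the reads per library. This was tried for totals under 100000, and whether another set fitted as well was not checked. All 1197 simulated members that the step solved were right, and 0 of 1200 decoys were solved. Of 4542 real members tried, 2048 were solved (45.1%). The simulated libraries of a group varied only a little around a common level. Genes with libraries as far apart as those of TNNC2 and MYLPF were thus not simulated. The derived levels differed from those of the recovered libraries by 0.266% in the median for wildtype. Such libraries carry no sample label and are named deeper or shallower within their group. The test on these reads was the quasi-likelihood test of edgeR 4.0.16 with the authors' scaling and all 8 libraries, with DESeq2 1.42.0 as an alternative, in R 4.3.3. Python 3.11.15 and pandas 2.3.3 did the rest. As only part of the genes have reads per library, the authors' FDR stayed the main test. Intervals and floors cover counting error only.

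Genes were named by a rule. It took the SWI/SNF subunits, the 15 highest and 15 lowest ratios among calls, the 12 most-read calls of at least 2-fold in each direction, the 8 lowest FDRs in each direction, up to 6 calls a list by size, and the 3 genes on each side of the minimum. Genes outside it are marked as picked after their values were seen, except other members of lists and markers. The members and lists were chosen with earlier results of these data known. Of the symbols in the full table, 27 read as dates and were not renamed. RefSeq tables on GRCh38.p14 gave chromosomes and promoters for 13210 members matched by symbol or synonym. Coordinates of the authors' build were not used. Some genes that the rule takes are not reported here.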

Additional observations from a re-analysis of the deposited data

How the results depend on the processing

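Of the 2112 members called (1192 higher, 920 lower), 669 (383 and 286) were left when a 2-fold change was required as well. The count was 1517 at an FDR threshold of 0.01, 1752 with a higher minimum of total reads and 2660 with no minimum, all within 1.5 times. On recovered reads, where the authors' FDR called 363 members (227 higher, 136 lower), edgeR called 567 (377 and 190), edgeR with TMM scaling 561 (281 and 280), DESeq2 592 (299 and 293) and edgeR on the 4 libraries of both groups 673 (438 and 235). The share called higher was 62.5% by the authors' FDR, 66.5% with edgeR, 50.1% with TMM and 50.5% with DESeq2. Leaving out 1 library at a time gave 168 to 314 calls, 113 to 206 of them higher and 55 to 108 lower, with the lone sample of a group assumed to vary like the other groups. Fewer libraries entered those fits. Other causes were not tested. The gene lists held 210 calls and 138 at an FDR threshold of 0.01, where 19 lists changed their count by over 1.5 times and 22 did not. These included receptor tyrosine kinases (14 to 8), lysosome and autophagy (9 to 3), oxidative phosphorylation (7 to 2), Notch (6 to 3), interferon-stimulated genes (6 to 3), cholesterol synthesis (6 to 2), intermediate filaments (4 to 2), MHC class I presentation (4 to 2) and AP-1 (3 to 1). Among the genes that the naming rule takes, printed or not, edgeR on recovered reads kept the authors' side of the threshold for 21, lost LSAMP, MGAT4C, BATF3 and PPM1D, and gained PBRM1. The authors' shorter list kept 67 of the rule's genes on the same side and gained GLTSCR1L. No paired analysis was possible because the recovered libraries carry no replicate label. Members with totals of 100000 or more have no value per library, and 82 members lay under 0.1 RPM in both groups, where 0 were called.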
